A study of Mus musculus with 9 samples.

Results

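The transcripts of 35 genes that mark macrophages and other myeloid cells were followed in the large intestine of wild-type mice and of 2 strains with a missense mutation in the mucin gene *Muc2*, *Winnie* and *Eeyore*. The genes were listed by name, from what is known of myeloid cells, but with earlier results of these data known. All 35 had a probe set of their own among the 18193 genes on the array, and 34 were bright enough to be tested, among 11453 tested genes. The exception was *Trem2*.

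Each group held 3 mice of 8 wk of age, with 1 Affymetrix array per mouse, made from RNA of proximal and distal large intestine pooled in equal quantities. The wild-type mice were C57BL/6. *Winnie* mice are C57BL/6, derived from a founder treated with the mutagen N-ethyl-N-nitrosourea (ENU), and their cysteine to tyrosine change lies in the D3 domain near the N terminus of Muc2. *Eeyore* mice, from an ENU-treated C57BL/6 founder as well, are a mixed strain (C57BL/6, NOD-SCID) with a serine to proline change in the C-terminal D4 domain, so that strain and allele cannot be told apart in them. All 9 mice are labelled male, but the wild-type arrays had signals of 7371 to 8261 for *Xist*, the transcript of the inactive X chromosome, against 9.13 to 107 in the mutant arrays. The Y-linked *Eif2s3y* lay between 4.73 and 24.1 in wild-type and between 1074 and 1454 in mutant mice. The wild-type arrays thus go against their label, and sex and *Muc2* allele cannot be told apart in either comparison with wild-type. *Muc2* itself fell by 1.27 (log2) in *Winnie* mice and by 1.13 in *Eeyore* mice.

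Macrophages of the intestine lie under the epithelium, where they take up bacteria and dying cells, and are replaced largely from blood monocytes, which depend on the growth factor receptor Csf1r and the transcription factor PU.1, the product of *Spi1*. They see antibody-coated particles through Fc gamma receptors, which signal through small adaptor proteins with an activation motif (ITAM), and kill what they engulf with an oxidase and lysosomal enzymes. C1q, the recognition part of the first complement component, is made mainly by macrophages in most tissues.

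The promoters of the members are of interest because PU.1 binds purine-rich DNA with the core GAGGAA. RefSeq promoter windows (250 bases before to 50 after the start, GRCm38.p6) were matched for 26 of the 35 members. GAGGAA was found on either strand in 17 of the 26 (65.4%), against 31.3% of all 27025 genes with a window. The longer GAGGAAGT, which contains it, was in 4 members (15.4%; *C1qc*, *Cd53*, *Ctss* and *Fcgr4*) and in 3.69% of all genes. GAGGAA was held by 8 of the 13 members with a window that rose in *Eeyore* mice and by 9 of the other 13. A match describes the letters only, and binding was not measured. The bases before the start of 3 such members and of *Fcgr2b*, which rose in both strains and has no match, are shown 5′ to 3′ on the strand of the gene, with GAGGAA, or TTCCTC where it lies on the other strand, in capitals. The match begins 55 bases before the start in *Fcgr1*, 22 in *Fcgr4* and 30 in *C1qb*.
*Fcgr1*, chr3:96293970-96294219, minus strand: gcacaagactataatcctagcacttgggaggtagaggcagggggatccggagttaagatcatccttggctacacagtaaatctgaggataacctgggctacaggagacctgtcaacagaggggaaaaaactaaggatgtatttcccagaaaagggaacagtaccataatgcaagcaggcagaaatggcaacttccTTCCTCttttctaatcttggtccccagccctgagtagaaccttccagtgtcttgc
*Fcgr4*, chr1:171018676-171018925, plus strand: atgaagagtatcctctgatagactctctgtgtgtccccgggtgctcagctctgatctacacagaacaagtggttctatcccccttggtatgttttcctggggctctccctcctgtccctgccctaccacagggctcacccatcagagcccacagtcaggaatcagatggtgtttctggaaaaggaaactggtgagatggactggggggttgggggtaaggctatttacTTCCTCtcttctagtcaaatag
*C1qb*, chr4:136886201-136886450, minus strand: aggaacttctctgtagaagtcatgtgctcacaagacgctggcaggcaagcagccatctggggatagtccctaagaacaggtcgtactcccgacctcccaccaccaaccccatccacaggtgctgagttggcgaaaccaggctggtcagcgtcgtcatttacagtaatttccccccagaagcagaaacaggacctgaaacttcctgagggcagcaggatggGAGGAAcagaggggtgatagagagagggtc
*Fcgr2b*, chr1:170976072-170976321, minus strand: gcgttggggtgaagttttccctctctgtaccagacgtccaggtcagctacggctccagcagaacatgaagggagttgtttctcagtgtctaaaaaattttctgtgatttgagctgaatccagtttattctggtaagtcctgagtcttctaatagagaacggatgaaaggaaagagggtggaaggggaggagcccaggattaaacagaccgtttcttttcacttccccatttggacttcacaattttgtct

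In *Eeyore* mice 20 of the 34 tested members rose and 1, *Cd163*, fell (adjusted p under 0.05, limma). Over all tested genes 14.0% rose and 16.6% fell in that comparison. In *Winnie* mice 6 members rose (*C1qa*, *Fcgr2b*, *Lst1*, *Mrc1*, *Msr1* and *Ncf4*) and none fell, with 11.3% of all genes higher and 11.9% lower. Without adjustment 11 members had a p under 0.05 there, all of them higher. The share of all tested genes at that unadjusted threshold was not computed. The median log2 fold change of the members was 0.94 in *Eeyore* and 0.40 in *Winnie* mice, where that of all tested genes was −0.04 and −0.05. Both comparisons share the wild-type arrays. In this bulk tissue more cells of a type and more RNA per cell cannot be told apart.

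**Figure D1:**
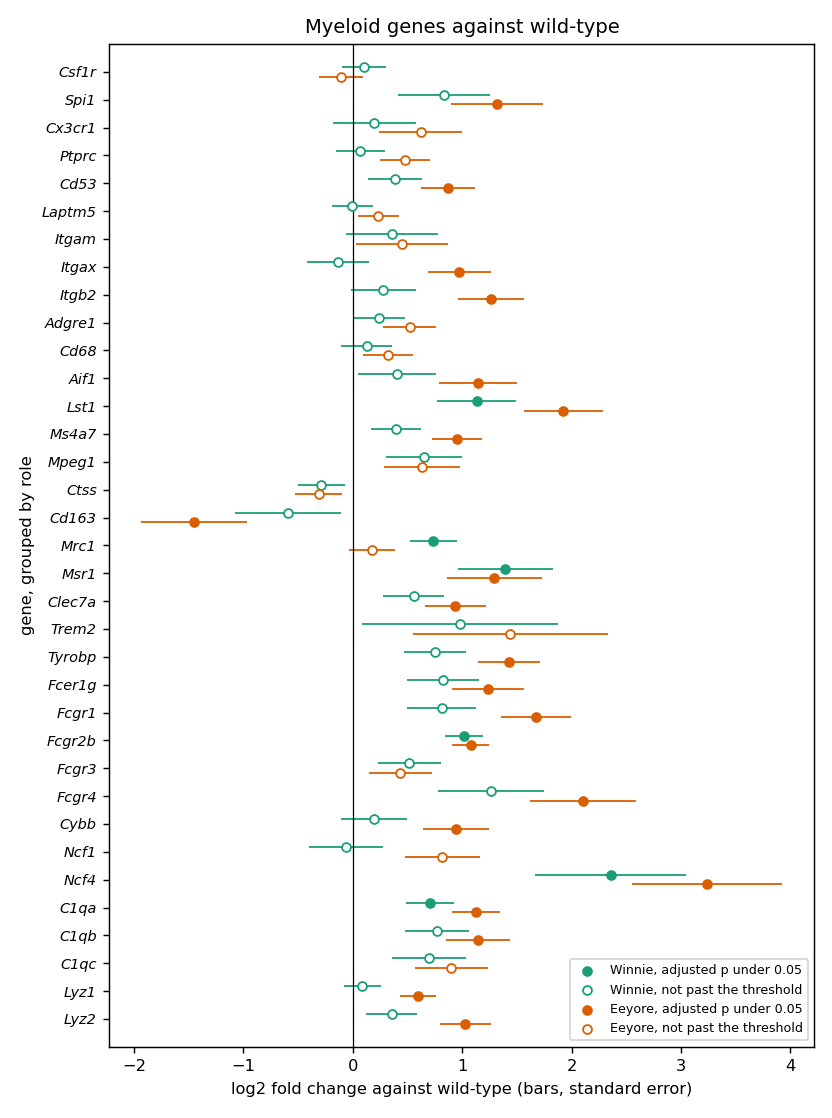
Log2 fold change (x axis, log2 units) of the 35 members against wild-type in *Winnie* (green) and *Eeyore* (orange) mice, with standard errors as bars and filled points for an adjusted p under 0.05. The points of *Eeyore* lie to the right of 0 for most members, *Ncf4*, whose wild-type signals are dim and spread widely, is at 3.24 and *Cd163* at −1.45.

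The count in *Winnie* mice rested on few animals. It was 2 without *Winnie* mouse 1, 1 without *Winnie* mouse 2, 1 without wild-type mouse 1, 3 without wild-type mouse 2 or 3, and 12 without *Eeyore* mouse 1, which enters through the shared estimate of the spread. In *Eeyore* mice the count of 21 was 12 without mouse 2 or mouse 3 of that strain and 13 without wild-type mouse 3.

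Of the 4 Fc gamma receptors, 3 rose in *Eeyore* mice and 1 rose in *Winnie* mice. *Fcgr2b*, the inhibitory receptor, had signals of 360.2, 389.8 and 433 in wild-type mice, 841, 924 and 647 in *Winnie* mice and 714, 903 and 883 in *Eeyore* mice. Every mutant mouse lay above every wild-type mouse, and the strains overlapped each other. The log2 fold change was 1.02 ± 0.17 (SE, n = 3 per group, adjusted p = 0.00214) in *Winnie* mice and 1.08 ± 0.17 (adjusted p = 0.00096) in *Eeyore* mice. This value is from the brightest of its probe sets, whose design marks it as shared with other transcripts. The other 3 that were tested gave 0.30, 0.71 and 0.54 in *Winnie* mice and 0.30, 0.71 and 0.69 in *Eeyore* mice, none past the threshold.

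*Fcgr4*, an activating receptor, had signals of 86.6, 70.0 and 102 in wild-type mice, 143, 275 and 217 in *Winnie* mice and 143, 569 and 604 in *Eeyore* mice. Again no mutant mouse overlapped with wild-type, and *Eeyore* mouse 1 lay far below the other 2 mice of its strain. The rise in *Eeyore* mice was 4.29-fold (log2 2.10 ± 0.48, adjusted p = 0.00729). In *Winnie* mice the log2 difference was 1.26 ± 0.48 and did not pass the threshold (adjusted p = 0.0841). *Fcgr1*, the high-affinity receptor, rose in *Eeyore* mice (1.67 ± 0.32, adjusted p = 0.00248), where its signals of 289, 475 and 273 lay above the 85.4, 109 and 123 of wild-type mice. A second, tested probe set of *Fcgr1* gave −0.22 in *Winnie* mice and −0.51 in *Eeyore* mice, neither past the threshold, so that the probe sets of this gene disagree. *Fcgr3*, the low-affinity activating receptor, had log2 differences of 0.52 and 0.43 and passed in neither strain.

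Both ITAM adaptors, which carry the signal of activating Fc and related receptors, rose in *Eeyore* mice. *Tyrobp* (DAP12) had signals of 542, 591 and 548 in wild-type mice, 762, 1406 and 782 in *Winnie* mice and 946, 1744 and 2077 in *Eeyore* mice. The mutant mice did not overlap with wild-type, and the wild-type mice lay close together. Its rise in *Eeyore* mice was 2.69-fold (log2 1.43 ± 0.28, adjusted p = 0.0033), and the difference of 0.75 ± 0.28 in *Winnie* mice did not pass (adjusted p = 0.0784). *Fcer1g*, the common chain of the Fc receptors, rose by 1.23 ± 0.33 in *Eeyore* mice (adjusted p = 0.0146) and differed by 0.82 ± 0.33 in *Winnie* mice (adjusted p = 0.0916). Of 11 tested genes listed for ITAM signalling, inhibitors among them, 2 rose in *Winnie* mice and 5 in *Eeyore* mice and none fell. Those that rose in *Eeyore* mice included the inhibitory phosphatase *Ptpn6* (0.47, adjusted p = 0.0455) and the inhibitory receptor *Sirpa* (1.10, adjusted p = 0.0147). The kinase *Syk*, which binds phosphorylated ITAMs, was the largest in both, with 1.00 ± 0.14 in *Winnie* mice and 1.10 ± 0.14 in *Eeyore* mice (adjusted p = 7.3e-04 and 2.4e-04). The smallest were *Fgr* in *Winnie* (−0.44) and *Pik3cd* in *Eeyore* mice (−1.32), neither past the threshold.

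Of the 3 genes of C1q, 2 rose in *Eeyore* mice and 1 rose in *Winnie* mice. *C1qa* had signals of 963, 1086 and 1035 in wild-type mice, 1584, 2069 and 1439.9 in *Winnie* mice and 1506, 2969 and 2532 in *Eeyore* mice. Each mutant mouse was above each wild-type mouse. It rose by 0.71 ± 0.22 in *Winnie* mice (adjusted p = 0.0379) and by 1.13 ± 0.22 in *Eeyore* mice (adjusted p = 0.0029). *C1qb* rose in *Eeyore* mice by 1.15 ± 0.29 (adjusted p = 0.0119), and its other 2 probe sets, with 1.34 and 0.79, passed there too. In *Winnie* mice its probe sets differed in the call, since the brightest gave 0.77 (adjusted p = 0.0792) and the others 0.78 (adjusted p = 0.0312) and 0.37 (adjusted p = 0.215). *C1qc* had differences of 0.70 in *Winnie* mice and 0.90 in *Eeyore* mice (adjusted p = 0.156 and 0.0627), and in *Eeyore* mouse 1 its signal of 748 was below the 797 to 821 of wild-type mice. Of 5 tested partners of the oxidase and of C1, only *Cyba* passed in *Eeyore* mice and none in *Winnie* mice.

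Of 3 oxidase genes 1 rose in *Winnie* mice and 2 in *Eeyore* mice. *Ncf4* (p40phox, a cytosolic subunit) had signals of 72.2, 149 and 12.8 in wild-type mice, 263, 303 and 231 in *Winnie* mice and 278, 596 and 696 in *Eeyore* mice. The groups did not overlap, but the wild-type mice spread over a wide range of dim signals. The log2 fold change was 2.36 ± 0.69 in *Winnie* mice (adjusted p = 0.0298) and came to 3.24 ± 0.69 in *Eeyore* mice (adjusted p = 0.00474), and its size is imprecise. The geometric mean in wild-type mice was 51.6, under the 85.9 that a probe set needed over all arrays to be tested, so that the gene entered the tests through the mutant mice. Set against 85.9, the geometric means of the mutant groups were 3.08 and 5.67 times as high. Of the tested members *Fcgr4*, *Msr1* and *Itgam* also had a wild-type geometric mean under 85.9 (85.3, 79.4 and 73.3). *Cybb*, the catalytic gp91phox, rose in *Eeyore* mice by 0.94 ± 0.30 (adjusted p = 0.0353) by its brightest probe set. Its other tested probe sets gave 0.544 and 1.198 there and did not pass (adjusted p = 0.343 and 0.116). The gene lies on the X chromosome, and sex and *Muc2* allele cannot be told apart in this comparison. The rise of the brightest probe set was carried by mice 2 and 3, with signals of 817 and 897. Mouse 1 was at 369 and wild-type mice at 261 to 412. *Ncf1* (p47phox) showed the same split, with 195 in *Eeyore* mouse 1 and 466 and 425 in mice 2 and 3, and did not pass (adjusted p = 0.09). *Cyba*, which forms the membrane complex with *Cybb*, rose by 0.65 ± 0.16 in *Eeyore* mice (adjusted p = 0.0103) and differed by −0.00 in *Winnie* mice.

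**Figure D2:**
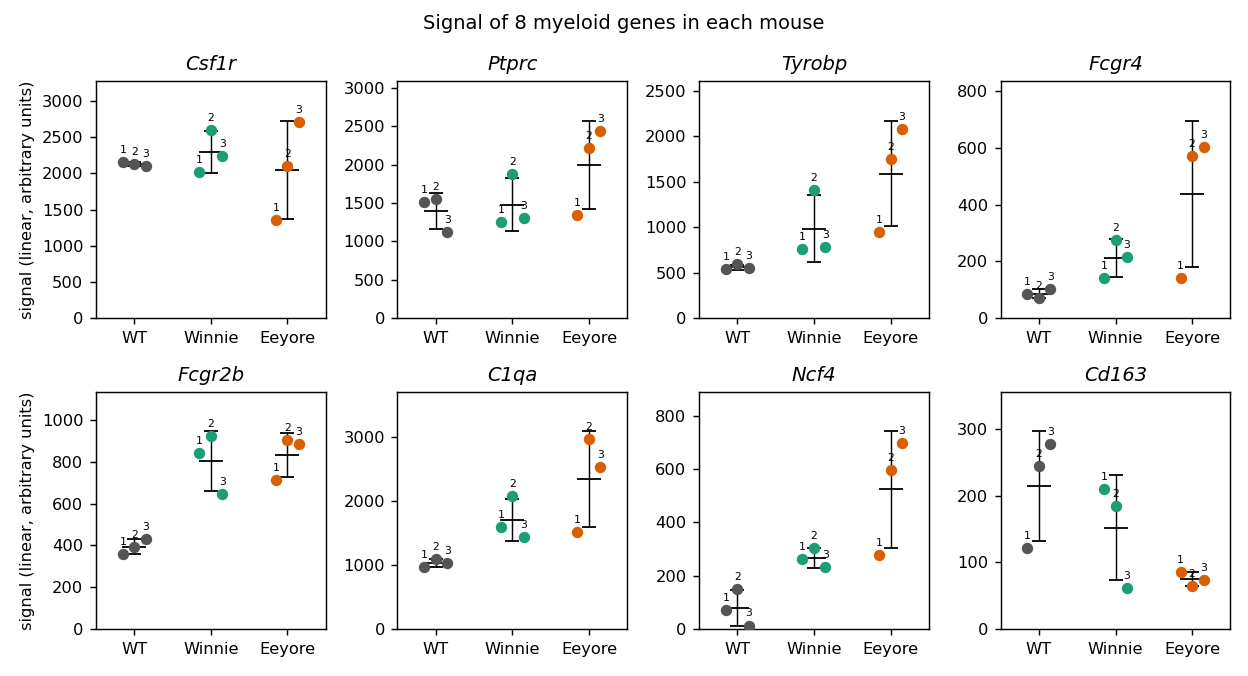
Deposited signal (y axis, linear arbitrary units, a separate scale for each gene) of 8 members in each mouse, numbered by mouse within group, with the group mean as a horizontal bar and the SD as whiskers. *Fcgr2b* and *C1qa* lie above wild-type in all 6 mutant mice, *Csf1r* overlaps in all groups, and *Eeyore* mouse 1 is the lowest of its group in all panels but that of *Cd163*.

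Of 4 tested receptors for microbial and modified ligands, 2 rose in *Winnie* mice, and 2 rose and 1 fell in *Eeyore* mice. *Mrc1*, the mannose receptor, had signals of 443, 541 and 663 in wild-type mice, 745, 1221 and 807 in *Winnie* mice and 549, 596 and 699 in *Eeyore* mice. It was the member that rose in *Winnie* mice (0.74 ± 0.21, adjusted p = 0.0279) without passing in *Eeyore* mice (0.18 ± 0.21, adjusted p = 0.561), yet the difference between the strains, −0.56 ± 0.21, did not pass either (adjusted p = 0.23). The scavenger receptor *Msr1* rose by 1.39 ± 0.43 and 1.29 ± 0.43, from wild-type signals of 66.1, 165 and 45.9. Its *Eeyore* signals of 145, 263 and 193 overlapped with wild-type. *Clec7a* (dectin-1, a receptor for fungal glucans) rose in *Eeyore* mice by 0.94 ± 0.28 (adjusted p = 0.0248).

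*Cd163*, the haemoglobin scavenger receptor of resident macrophages, was the one member that fell. Its signals were 121, 244 and 278 in wild-type mice, 210.0, 184 and 61.8 in *Winnie* mice and 85.0, 63.8 and 74.0 in *Eeyore* mice. All *Eeyore* mice lay below all wild-type mice, whereas *Winnie* mice overlapped with both. The log2 fold change in *Eeyore* mice was −1.45 ± 0.48 (adjusted p = 0.0408). The call was lost with quantile normalisation and with median centring of the arrays and held in 7 of 18 alternatives. The *Eeyore* signals were below the filter of 85.9 applied to the mean of all arrays. *Trem2*, a receptor for lipids, was at 14.5 to 47.0 in wild-type mice, 25.2 to 74.1 in *Winnie* mice and 26.6 to 101 in *Eeyore* mice and was not tested.

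Of the surface and lysosomal genes, *Lst1*, a leukocyte transcript of the major histocompatibility complex, changed most. Its signals were 239.7, 228 and 148 in wild-type mice, 386, 530.1 and 417 in *Winnie* mice and 376, 1138 and 1035 in *Eeyore* mice. No mutant mouse overlapped with wild-type. It rose by 1.13 ± 0.36 in *Winnie* mice (adjusted p = 0.0433) and by 1.93 ± 0.36 in *Eeyore* mice (adjusted p = 0.00243). *Aif1* (Iba1) and *Ms4a7* rose in *Eeyore* mice by 1.14 ± 0.35 and 0.95 ± 0.23. The textbook macrophage markers *Adgre1* (F4/80) and *Cd68* (macrosialin) did not pass, with 0.52 ± 0.24 and 0.32 ± 0.23 in *Eeyore* and 0.24 and 0.13 in *Winnie* mice. *Mpeg1* (perforin-2) had differences of 0.65 and 0.63. *Ctss* (cathepsin S) had signals of 13549.8, 14316 and 14497 in wild-type mice, 11133, 12043 and 11544 in *Winnie* mice and 7174, 12513 and 16321 in *Eeyore* mice, and its differences of −0.29 and −0.31 did not pass. The wild-type and *Winnie* mice did not overlap for this gene, and *Eeyore* mice spanned both.

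Of 15 other lysosomal genes tested, 1 rose and 3 fell in *Winnie* mice and 3 rose and 1 fell in *Eeyore* mice. *Ctsc* (cathepsin C) was the largest in both, with 0.68 and 1.22 (adjusted p = 0.00225 and 3.4e-05), and *Ctsl* (cathepsin L) the smallest, with −0.62 and −0.81 (adjusted p = 0.00444 and 6.2e-04).

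The lysozymes were measured by probe sets that may share signal, since the genes are nearly identical, and they are therefore uncertain as separate genes. *Lyz2*, the macrophage lysozyme, had signals of 3768, 3886 and 3159.5 in wild-type mice, 4117, 4931 and 4762 in *Winnie* mice and 4631, 7859 and 10788 in *Eeyore* mice. Neither mutant group overlapped with wild-type. It rose by 1.03 ± 0.23 in *Eeyore* mice (adjusted p = 0.00634) and differed by 0.35 ± 0.23 in *Winnie* mice (adjusted p = 0.295). *Lyz1*, which Paneth cells also use, rose by 0.60 ± 0.17 in *Eeyore* mice (adjusted p = 0.0196), with bright probe sets whose design marks them as shared with other transcripts. The second of these probe sets gave 0.84 ± 0.17 in *Eeyore* mice (adjusted p = 0.00406) and 0.03 in *Winnie* mice. The remaining probe set of *Lyz1* had signals of 7.59 to 95.2 over the 9 arrays and was not tested. The brightest probe sets of *Fcgr2b*, *C1qb*, *Aif1* and *Laptm5* are also marked as shared with other transcripts. Of 2 tested Paneth cell genes *Pla2g2a*, a secreted phospholipase, rose in both strains (2.00 and 2.85), and the other, *Ang4*, an antimicrobial ribonuclease, fell by 3.58 in *Winnie* mice (adjusted p = 6.8e-04) and differed by −0.28 in *Eeyore* mice.

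Of 3 integrin chains, 2 rose in *Eeyore* mice and none in *Winnie* mice. *Itgb2* (CD18), the common beta chain, rose by 1.26 ± 0.30 in *Eeyore* mice (adjusted p = 0.00836), with signals of 334, 539 and 738 against 222, 183 and 236. *Itgax* (CD11c) had signals of 205, 281 and 156 in wild-type mice, 143, 234 and 201 in *Winnie* mice and 321, 419 and 506 in *Eeyore* mice. The *Eeyore* mice stood above all 6 others. It rose by 0.97 ± 0.28 against wild-type (adjusted p = 0.0233). By brightest probe sets, its difference between the strains was the closest to the threshold of all members (1.11 ± 0.28, adjusted p = 0.0691). *Itgam* (CD11b) was the dimmest tested member, with signals between 53.8 and 123, and its differences of 0.36 ± 0.42 and 0.45 ± 0.42 did not pass.

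Of *Csf1r*, *Spi1* and *Cx3cr1*, which define the lineage, only *Spi1* passed, in *Eeyore* mice. *Csf1r* had signals of 2149, 2132 and 2094 in wild-type mice, 2022, 2598 and 2244 in *Winnie* mice and 1349.7, 2101 and 2701 in *Eeyore* mice. All groups overlapped, and *Eeyore* mice ran from below to above every wild-type mouse. Its log2 difference was 0.10 (95% interval −0.34 to 0.54) in *Winnie* mice and −0.11 (−0.55 to 0.33) in *Eeyore* mice, and its other 2 probe sets did not pass either. *Spi1* rose in *Eeyore* mice by 1.32 ± 0.42 (adjusted p = 0.0352), from signals of 156, 53.8 and 98.9 to 190.4, 236 and 284. *Cx3cr1*, the fractalkine receptor of resident macrophages, did not pass (0.20 ± 0.38 and 0.62 ± 0.38), and its wild-type mice ranged from 141 to 350.0. Of the pan-leukocyte genes, *Cd53* rose in *Eeyore* mice by 0.87 ± 0.25 (adjusted p = 0.0205). *Ptprc* (CD45) had differences of 0.07 (95% interval −0.43 to 0.57) and 0.48 (−0.02 to 0.98), and *Laptm5*, a lysosomal protein of blood cells, of −0.01 and 0.23, none past the threshold.

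Of 13 tested genes of the CSF1 axis and of myeloid transcription factors, 1 rose and 2 fell in *Winnie* mice and 2 rose and 2 fell in *Eeyore* mice. *Cebpb* was the largest in *Winnie* mice (0.90 ± 0.19, adjusted p = 0.00692) and *Csf2rb*, the shared beta chain of the GM-CSF receptor, in *Eeyore* mice (0.95 ± 0.25, adjusted p = 0.0145). *Runx1* was the smallest in both (−0.68 and −0.93), past the threshold in *Eeyore* mice (adjusted p = 0.0421).

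By brightest probe sets, the direct comparison of *Eeyore* with *Winnie* mice called no member with limma. Before adjustment 11 members had a p under 0.05 there, and 27 of 34 differences were above 0. The shares of all tested genes for both counts were not computed. The members moved together within single mice, so these counts are not made of separate results. A second tested probe set of *Lyz1*, also marked as shared with other transcripts, passed as higher in *Eeyore* than in *Winnie* mice (0.81 ± 0.17, adjusted p = 0.0297). Over all tested genes 1.29% were called higher and 1.30% lower. The median difference of the members was 0.42, and that of all genes −0.01. The members that rose in *Eeyore* mice only are thus not shown to differ between the strains by their brightest probe sets. Without *Eeyore* mouse 1, 14 members were called higher in *Eeyore* than in *Winnie* mice. Of all genes tested in that fit 2.40% were called higher. Among the 14 members were *Lyz2* (1.00 ± 0.15, adjusted p = 0.00291), *Lyz1*, *Lst1*, *Cybb*, *Ms4a7* and *Fcgr4*. That mouse was the lowest of its group in 32 of the 34 tested members, so leaving it out raises the *Eeyore* means of these genes. The 14 calls are therefore not a separate test of the strains. Leaving out any other single mouse called no member.

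The mice of a group were unequal in these genes. *Eeyore* mouse 1 was the lowest of its group in 32 of the 34 tested members, against 32.4% of all tested genes, and *Winnie* mouse 2 was the highest of its group in 30, against 36.7% of all genes. The median log2 deviation of the members from the wild-type mean was 0.28, 1.17 and 1.29 in *Eeyore* mice 1, 2 and 3 and 0.37, 0.87 and 0.22 in *Winnie* mice. *Eeyore* mice 2 and 3 were both above every wild-type mouse in 28 members (25.7% of all genes) and *Eeyore* mouse 1 in 18 (34.0% of all genes). All 3 mice together were above every wild-type mouse in 18 members in *Eeyore* (20.7% of all genes) and in 16 in *Winnie* (19.7% of all genes). The median SD of the log2 signal of the members was 0.21 in wild-type mice, 0.32 in *Winnie* mice and 0.51 in *Eeyore* mice, where over all tested genes it was 0.18, 0.20 and 0.21.

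**Figure D3:**
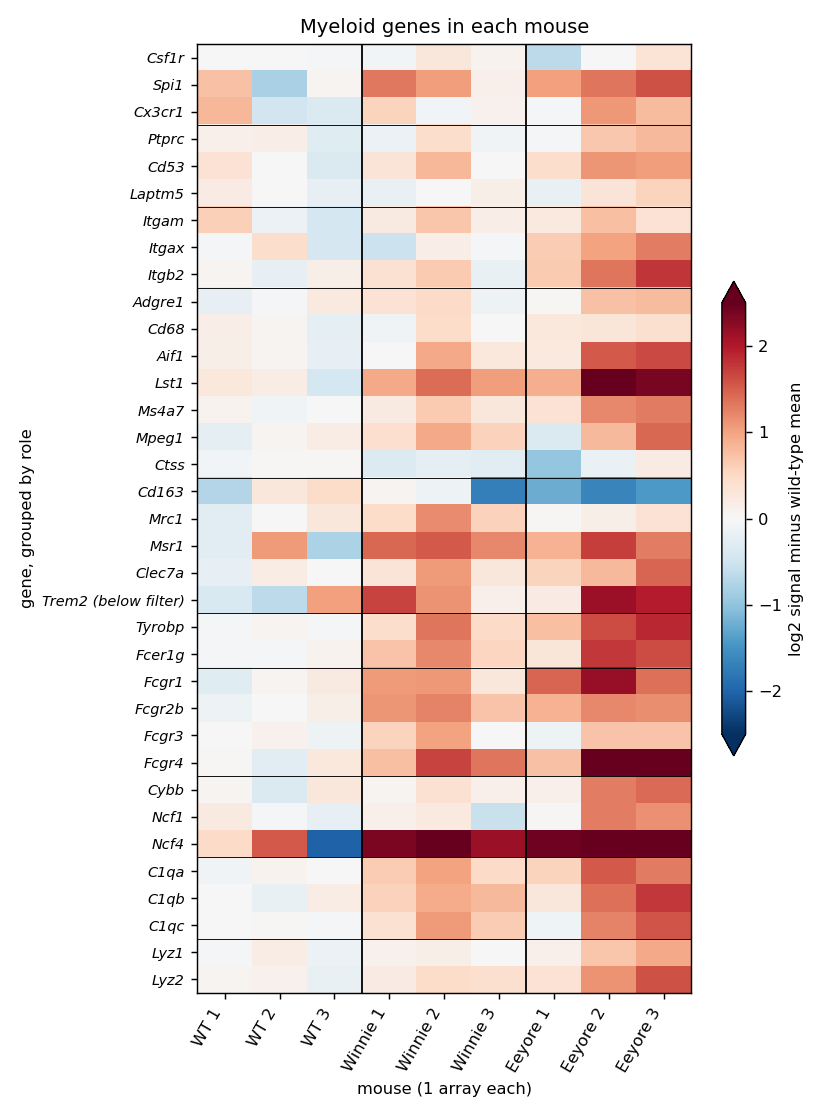
Log2 signal of each member (rows, grouped by role) in each mouse (columns) minus the wild-type mean, red above and blue below, with the colour scale cut at its ends. *Eeyore* mouse 1 is paler than mice 2 and 3 in most rows, *Winnie* mouse 2 is the highest of its group in 30 of the 34 tested rows, and *Cd163* is blue where most rows are red.

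Genes of other cells moved beside these. The 12 smooth muscle genes all fell in both strains, from a summed signal of 144827 to 149828 in wild-type to 66568 to 72666 in *Winnie* mice and 53358 to 59962 in *Eeyore* mice. Of 12 epithelial genes 4 passed as higher in *Winnie* mice and 8 in *Eeyore* mice, with sums of 240029 to 251508, 286851 to 298584 and 303116 to 337550.0. *Krt20* was the largest in both strains (0.94 and 0.77). All 8 fibroblast genes were tested, and 2 fell in *Winnie* mice and 4 in *Eeyore* mice, *Lum* most (−0.84 and −1.10). Of 4 tested endothelial genes 2 and 3 fell. The part of these changes in the results for the myeloid genes was not tested.

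The median log2 deviation of the 8 tested B and plasma cell genes was −0.04, 0.45 and 0.57 in *Eeyore* mice 1, 2 and 3. In *Winnie* mice it was −0.57, −0.63 and −0.35. The sum over the 9 with a probe set was 17482 to 24536 in wild-type mice, 18737 to 25823 in *Winnie* mice and 22993 to 38641 in *Eeyore* mice. Most of that sum came from *Jchain*, with signals of 15098 to 21981, 16788 to 22986 and 20593 to 34360. In *Winnie* mice 6 of the 8 tested genes were below 0. Of 8 tested, 1 rose in *Eeyore* and 1 fell in *Winnie* mice, the latter *Cd79b* (−0.79, adjusted p = 0.0447). Smooth muscle was at −1.45, −1.75 and −1.56 and epithelium at 0.33, 0.31 and 0.47 in *Eeyore* mice 1, 2 and 3. *Eeyore* mouse 1 was the lowest of its group in the median of the B and plasma cell genes as well as in that of the members. The same held for the resident macrophage genes, at −0.82 against −0.25 and −0.30 in mice 2 and 3. It held too for the lists of oxidase and C1 partners, CSF1 axis, ITAM signalling, lysosome and endothelium, and not for the remaining lists. *Ccl8*, a chemokine of resident macrophages, ran with the members at 911, 3072 and 5548 in *Eeyore* mice, from 496 to 676 in wild-type mice, and rose there by 2.09 ± 0.48 (adjusted p = 0.00716). The rest of its list went the other way, since 8 of the 9 tested resident macrophage genes were below 0 in *Eeyore* mice (median −0.43).

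**Figure D4:**
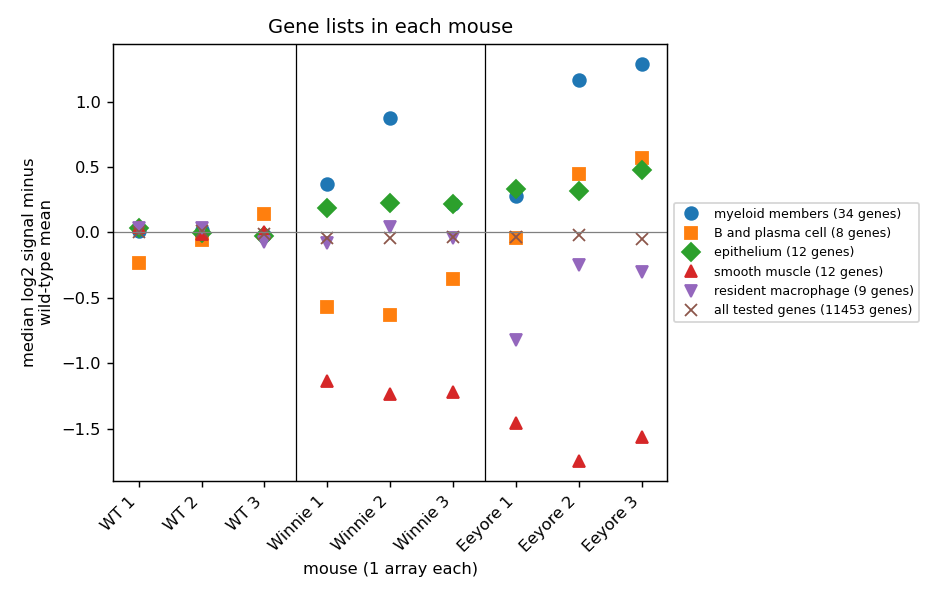
Median over each gene list of the log2 signal minus the wild-type mean (y axis, log2 units) in each mouse (x axis), with 1 symbol per list. The myeloid members stand at 0.22 to 0.87 in *Winnie* mice and at 0.28, 1.17 and 1.29 in *Eeyore* mice, smooth muscle lies at or below −1.14 in every mutant mouse, and all tested genes stay near 0.

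Of 9 tested genes of resident macrophages outside the list, none rose and 2 fell in *Winnie* mice, and 1 rose and 3 fell in *Eeyore* mice. *Mertk*, a receptor for dying cells, had signals of 1415, 1416 and 1509 in wild-type mice, 713, 519 and 596 in *Winnie* mice and 533, 528 and 759.9 in *Eeyore* mice. The mutant mice were all far below wild-type. It fell by 1.26 ± 0.17 and by 1.27 ± 0.17 (adjusted p = 6.8e-04 and 3.7e-04). Of 7 tested monocyte genes, 1 rose in *Winnie* mice, and 2 rose and 1 fell in *Eeyore* mice. The gene that rose in both was *Plac8* (0.35 and 0.53, adjusted p = 0.00693 and 4.0e-04). Its signals were already 26006 to 27718 in wild-type mice, and which cells they came from was not tested. In *Eeyore* mice 5 of the 7 differences were below 0. The calcium-binding *S100a4* was the largest in *Eeyore* mice (0.87, adjusted p = 0.00547) and *F13a1*, the A chain of coagulation factor XIII, the smallest (−0.66, adjusted p = 0.0409). In *Winnie* mice *Ccr2* (0.51) and *Itga4* (−0.79) were at the ends and did not pass.

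Neutrophils share many of the members, among them *Ncf4*, *Itgb2* and the Fc receptors. *S100a9*, a chain of the neutrophil protein calprotectin, had signals of 13.2, 68.4 and 8.76 in wild-type mice, 526, 2257 and 250.1 in *Winnie* mice and 703, 362 and 636 in *Eeyore* mice. It rose in both strains (adjusted p = 0.0014 and 0.0012), and its partner *S100a8* rose as well. The wild-type geometric means of 19.9 and 32.8 lie under the 85.9 needed to be tested, so that both genes entered through the mutant mice and the log2 fold changes of *S100a9*, 5.06 and 4.77, are imprecise. Against 85.9, its geometric means were 7.77 times as high in *Winnie* mice and 6.34 times as high in *Eeyore* mice. *Winnie* mouse 2, the highest of its group in most members, was the highest in both, while the order of the *Eeyore* mice was not that of the members. Of the 4 neutrophil genes tested 2 rose in each strain, and *Ltf* was the smallest (−0.93 and −1.48, not past the threshold). The granule genes *Mpo*, *Elane*, *Camp* and *Ngp* and the receptor *Cxcr2* were too dim to be tested. The summed signal of the list was 3681 to 4276 in wild-type mice, 2873 to 9585 in *Winnie* mice and 4242 to 8934 in *Eeyore* mice. Its largest part in every mouse was *Cd177*, with signals of 2468 to 3117, 1758 to 4158 and 2065 to 6945. *Cd177* differed by −0.24 in *Winnie* mice and by 0.35 in *Eeyore* mice, neither past the threshold (adjusted p = 0.707 and 0.538). Of 3 tested dendritic cell genes *Cd83* fell in both strains (−0.97 and −0.73). Summed over the 9 listed genes with a probe set, tested or not, the signal was 1184 to 1292 in wild-type mice. It was 756 to 1042 in *Winnie* mice and 921 to 1430.0 in *Eeyore* mice. The largest part of this sum in every mouse was *Cd83*, with 622 to 757 in wild-type mice. Of 4 tested T and NK cell genes *Thy1* fell in *Winnie* mice (−0.89, adjusted p = 0.0311). The sums over the 9 listed with a probe set, tested or not, were 1139 to 1631, 769 to 1054 and 943 to 1660. *Thy1* was their largest part in every mouse, with 541 to 762 in wild-type mice. Of 12 mast cell and eosinophil genes only *Kit* was tested, which fell in both (−1.64 and −1.97). *Kit* is not particular to mast cells, so its fall does not stand for the list. *Mcpt1* and *Mcpt2*, proteases of mucosal mast cells, were under the filter over all arrays and not tested, but their signals did not overlap between mutant and wild-type mice. Those of *Mcpt1* were 2.46 to 12.0 in wild-type mice, 90.9 to 127 in *Winnie* mice and 231 to 400.1 in *Eeyore* mice. Those of *Mcpt2* were 4.78 to 10.3 in wild-type mice, 141 to 207 in *Winnie* mice and 285 to 442 in *Eeyore* mice. Of the other untested genes of the list, *Mcpt4*, *Ms4a2* and *Epx* lay above wild-type in *Eeyore* mice only, at dim signals. The rest overlapped with wild-type in both strains. The part of these cells in the results for the members was not tested.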

How the data were processed

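The values deposited by the authors are linear signal intensities, 1 per probe set and array. On all 9 arrays the mean of the signals was 500 once 2% at each end were trimmed. The algorithm is not given in the sources used here, and detection calls were not used. Array medians were 119 to 129 in wild-type and 88.1 to 99.5 in mutant mice, so that dim signals stand apart by group. The 3'/5' ratio of the *Gapdh* control was 0.852 to 0.979, and that of actin 1.82 to 1.88 in wild-type and 1.53 to 1.69 in mutant mice. Only 3 arrays per group limit the precision, and p-values measure the spread between mice.

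Control probe sets were left out, and 22519 of the 45037 others, at or above the median in their mean log2 signal (6.43, which is 85.9 in signal), entered the tests. For each gene the brightest probe set was used, among those annotated to this symbol alone (34945 probe sets have 1 symbol, 932 several and 9160.0 none). The members have 62 probe sets. The 3 groups were fitted in 1 model with lmFit and eBayes of limma 3.58.1 (R 4.3.3), using an intensity trend, and p-values were adjusted by Benjamini-Hochberg over all tested probe sets (threshold 0.05). The fit was tested on simulated data. Errors are standard errors of the fit, and each fold change is a ratio of geometric means. Alternatives covered scaling, filter, pseudocount (32), variance model, arrays in the fit, a replicate block, leaving out each mouse and averaging probe sets.

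The members and lists were chosen with earlier results of these data known. All members are named, and of other lists the genes with the largest and smallest log2 fold change in each strain, besides *Xist*, *Eif2s3y* and *Muc2*. *S100a8*, *Jchain*, the granule genes, *Cxcr2*, *Mcpt1* and *Mcpt2* were named after their values were seen. So were *Ptpn6*, *Sirpa*, *Cd177*, *Plac8*, *Mcpt4*, *Ms4a2* and *Epx*. List genes without a probe set of their own were not analysed here. Promoter sequences are from RefSeq. Plots were made in matplotlib 3.10.9 (Python 3.11.15).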

Additional observations from a re-analysis of the deposited data

Results flagged for a closer look

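By its brightest probe set, no member was among the results in which the strains differed by the test of the difference. Among the other genes named, *Ctsc*, a lysosomal protease that activates granule enzymes of leukocytes, was higher in *Eeyore* than in *Winnie* mice by 0.54 ± 0.12 (log2, SE, adjusted p = 0.0297). *Ang4*, an antimicrobial ribonuclease listed with Paneth cells, was higher in *Eeyore* than in *Winnie* mice by 3.30 ± 0.50 (adjusted p = 0.00323), since it fell by 3.58 in *Winnie* mice and differed by −0.28 in *Eeyore* mice.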

How the results depend on the processing

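No called member changed sign under any alternative. Of the 21 calls in *Eeyore* mice 8 held in all alternatives run (*Itgb2*, *Lst1*, *Tyrobp*, *Fcgr4*, *Ncf4*, *C1qa*, *C1qb* and *Lyz2*), and of the 6 in *Winnie* mice none did. The cause of these changes was not tested. The count in *Winnie* mice was 20 with median centring, 3 with a filter at the 75th percentile, 1 without the intensity trend, 14 with only the groups compared in the fit and 2 with the mean over probe sets. In *Eeyore* mice it was 9 with the stricter filter, which left 17 members, and 13 with the mean over probe sets. Leaving out 1 mouse gave 1 to 12 calls in *Winnie* against wild-type, 12 to 25 in *Eeyore* against wild-type and 0 to 14 in *Eeyore* against *Winnie* mice. Scaling moved the median of all tested probe sets from −0.09 in both strains to 0.03 with quantile normalisation and with median centring to 0.32 and 0.24 (*Winnie* and *Eeyore*), where the median of the members was 0.81 and 1.26. Calls over all probe sets, 2195 higher and 2639 lower in *Winnie* mice, became 7234 and 853 with median centring, and in *Eeyore* mice 2747 and 3842 became 6350.0 and 1877.

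Differences that were not called changed sign as follows. In *Winnie* mice, quantile normalisation and median centring gave *Laptm5* 0.0086 and 0.40, *Itgax* 0.17 and 0.27 and *Ncf1* 0.27 and 0.35, *Ctss* was 0.12 with median centring and *Lyz1* −0.037 with quantile normalisation. The mean over probe sets gave *Ptprc* −0.078 and *Laptm5* 0.051 in *Winnie* mice, *Csf1r* 0.13 and *Ptprc* −0.18 in *Eeyore* mice, and *Ms4a7* −0.81 between the strains. In *Eeyore* mice median centring gave *Csf1r* 0.22 and *Ctss* 0.012. Leaving out 1 mouse, the values in *Winnie* mice ran from −0.041 to 0.62 for *Cx3cr1*, −0.11 to 0.17 for *Ptprc*, −0.11 to 0.090 for *Laptm5*, −0.35 to 0.079 for *Itgax*, −0.044 to 0.24 for *Cd68* and −0.21 to 0.18 for *Ncf1*, and in *Eeyore* mice from −0.34 to 0.16 for *Csf1r* and −0.58 to 0.018 for *Ctss*.

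Mice of the same number share only a number, with correlations of their deviations of −0.01 to 0.16. With a replicate block 8 members were called in *Winnie*, 21 in *Eeyore* and 0 in *Eeyore* against *Winnie* mice.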
